A study of Mus musculus with 19 samples.

Results

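The 10 genes described here belong to major histocompatibility complex (MHC) class I peptide supply, and they were followed across 9 treatment groups of mouse splenic natural killer (NK) cells. They are Tap1 and Tap2, Tapbp, B2m, the immunoproteasome subunit genes Psmb8, Psmb9 and Psmb10, the proteasome activator genes Psme1 and Psme2, and the regulator gene Nlrc5. They were picked by name from the array annotation, and all 10 were found among the 19752 genes measured by a probe set with a single symbol. Where a gene had several such probe sets the brightest stood for it, which concerned only Nlrc5 with its 19 probe sets. The mean intensity of all 10 was high, from the 83.4th percentile of genes for Psmb8 to the 99.9th for B2m.

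Spleens of 6-week-old male C57BL/6 mice supplied the cells, negative selection enriched them for NK cells, and RNA of 19 samples was read on Affymetrix Mouse Gene 1.0 ST arrays. A JAK1 inhibitor was given with interleukin-2 (IL-2, 250 U/ml) at 0.0625 µM (1 sample), 0.25 µM (2 samples), 1 µM (2 samples) and 4 µM (1 sample). A JAK3 inhibitor was given with the same IL-2 at 0.25, 1 and 4 µM (2 samples each). Both compounds are known here only by code names, so nothing is said of their structure. IL-2 alone gave 4 samples and untreated cells 3. Culture lasted 8 h for all samples except untreated replicate 2, whose label names no time. Whether replicates are separate mice or cultures is not stated in the labels. The p-values therefore rest on the spread among the arrays of a group, and this spread may be a technical one.

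The deposited intensities lay on 2 scales. A high-intensity set of 7 samples had log2 medians of 7.49 to 7.59, and a low-intensity set of 12 samples had log2 medians of 5.7 to 5.9. All samples of the 0.0625 and 4 µM groups were in the low-intensity set, and every other group had samples in each set. Levels below are log2 intensities with the high-intensity arrays moved onto the scale of the other set by the fitted difference for each gene. Changes come from a limma fit over all samples with a term for the set, with Benjamini-Hochberg adjustment over all genes. A gene is called higher or lower at an adjusted p under 0.05, and ± gives the standard error of a log2 change. With so few arrays a group, precision is limited throughout. Levels of different genes are not compared, since they rest on different probes.

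Class I molecules show cells' own peptides to T cells, and their level on a cell also governs how NK cells treat it. Proteasomes cut proteins into peptides, the TAP transporter carries the peptides into the endoplasmic reticulum, and tapasin holds the transporter beside an empty class I molecule until a peptide is bound. Interferon-exposed cells and many lymphocytes swap the catalytic proteasome subunits for immunosubunits, and NLRC5 switches on class I genes together with several of these partners. IL-2 signals through JAK1 and JAK3, which sit on the receptor's beta and common gamma chains.

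Of the genes, 5 lie on mouse chromosome 17 (Tap1, Tap2, Tapbp, Psmb8 and Psmb9), 2 on chromosome 14 (Psme1 and Psme2), 2 on chromosome 8 (Psmb10 and Nlrc5) and B2m on chromosome 2. Promoter windows of 300 bases, from 250 bases before the gene start to 50 after it, were given for 8 of the 10 genes in RefSeq on build GRCm38.p6. The 8 are all but Tap2 and Nlrc5. Of the 3 stretches printed below, the first lies between Tap1, the gene with the largest IL-2 change, and its neighbour. That ranking reads Nlrc5 by its brightest probe set, and most of its other probe sets changed by more than Tap1. The other stretches are printed for the gene with no called change and for a gene whose window holds another motif. Tap1 and Psmb9 start back to back on opposite strands with 225 bases between them, so a single stretch lies upstream of both. It is chr17:34187331-34187555 on the plus strand, with the Psmb9 start just before it and the Tap1 start just after it, and capitals mark a CCAAT box and a GGGCGG box (on the minus strand).
Tap1 and Psmb9: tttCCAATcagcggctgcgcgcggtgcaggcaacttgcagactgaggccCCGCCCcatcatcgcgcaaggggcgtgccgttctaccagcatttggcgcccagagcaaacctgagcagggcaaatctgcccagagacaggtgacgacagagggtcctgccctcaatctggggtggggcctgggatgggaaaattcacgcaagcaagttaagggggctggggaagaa
The B2m stretch is chr2:122147437-122147686 on the plus strand, and its capitals mark a match to 2 copies of GAAA with any 2 bases between them, the core of the interferon-stimulated response element. The Psmb8 stretch is chr17:34197945-34198194 on the plus strand, and its capitals mark a match to TTCNNNGAA, the palindrome that STAT5 and other STAT dimers bind.
B2m: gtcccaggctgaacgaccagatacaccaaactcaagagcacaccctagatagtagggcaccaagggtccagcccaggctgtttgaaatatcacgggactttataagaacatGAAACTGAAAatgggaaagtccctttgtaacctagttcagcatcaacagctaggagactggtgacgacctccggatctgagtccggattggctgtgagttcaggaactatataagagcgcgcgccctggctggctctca
Psmb8: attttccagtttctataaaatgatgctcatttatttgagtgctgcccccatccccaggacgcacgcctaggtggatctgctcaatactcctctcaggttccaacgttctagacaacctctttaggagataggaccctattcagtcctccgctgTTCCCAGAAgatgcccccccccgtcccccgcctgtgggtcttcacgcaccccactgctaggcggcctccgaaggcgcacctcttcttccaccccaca
Both strands of every window were searched for the exact letters. The paired GAAA motif was present in the windows of B2m, 139 to 130 bases before the start, and of Psme1, 10 to 19 bases after the start on the minus strand. Of all 32851 mouse windows, 3.44% held it. TTCNNNGAA was present in the window of Psmb8 alone among the 8 genes, 97 to 89 bases before the start, and in 8.3% of all windows. CCAAT was present for 4 of the 8 genes (Tap1, Tapbp, B2m and Psmb9) and in 37.41% of all windows. GGGCGG was present for 5 of the 8 (Tap1, Tapbp, Psmb9, Psme1 and Psme2) and in 35.66% of all windows. Within the shared stretch, Tap1 and Psmb9 hold the same CCAAT and GGGCGG matches.

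IL-2 raised 9 of the 10 genes, and B2m was the exception. The rises lay between 1.56-fold for Nlrc5, as read by its brightest probe set, and 2.43-fold for Tap1. Of all genes tested, 6.56% were called higher with IL-2, and the median log2 change was 0.87 over the 10 genes and -0.01 over all genes. For the 9 genes that rose, every IL-2 sample lay above every untreated sample, a separation that 10.4% of all genes showed. With the form of the sample title, which takes 1 array to the other side, in place of the scale set, 1 of the 10 was called (Tap1, adjusted p = 0.0231), and the 9 changes were 0.66 to 1.32.

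Tap1 and Tap2 encode the subunits of the peptide transporter. Tap1 had levels of 9.62, 9.87, 10.03 and 10.02 in IL-2 cells, against 9.03, 8.14 and 8.64 in untreated cells. The groups were well apart, and the untreated sample with no stated time was the highest of its group. The log2 change of Tap1 was 1.28 ± 0.18 (95% interval 0.9 to 1.66, adjusted p = 6.11e-05). Tap2 had a smaller rise of 0.71 ± 0.17 (adjusted p = 0.0106), from levels of 7.87 to 8.32 in IL-2 cells and 7.22 to 7.75 in untreated cells.

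Tapbp, which encodes tapasin, and B2m, which encodes the light chain shared by all class I molecules, parted. Tapbp rose by 0.84 ± 0.19 (adjusted p = 0.00686), with levels of 9.88 to 10.5 in IL-2 cells and 9.01 to 9.8 in untreated cells. B2m had levels of 11.54, 11.38, 11.59 and 11.43 in IL-2 cells, against 11.41, 12.24 and 11.1 in untreated cells. The untreated samples lay on both sides of the IL-2 samples. The B2m change was -0.10 ± 0.24 (95% interval -0.59 to 0.39, adjusted p = 0.888). That interval does not reach the smallest rise of the other 9 genes.

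The 3 catalytic immunosubunits rose by similar amounts. Psmb9 had levels of 8.27, 8.56, 8.78 and 8.92 in IL-2 cells, against 7.91, 7.54 and 7.47 in untreated cells, with no overlap. Its change was 0.99 ± 0.17 (adjusted p = 0.000571). Psmb8, whose product carries the chymotrypsin-like activity of the immunoproteasome, rose by 0.91 ± 0.17 (adjusted p = 0.00124). Psmb10, which replaces the trypsin-like subunit, rose by 0.85 ± 0.14 (adjusted p = 0.000267). Its 3 untreated samples were close together, at 8.15, 8.02 and 8.16.

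The activator genes rose together with the catalytic subunits. Psme1 and Psme2 encode the alpha and beta subunits of a ring that caps the proteasome and opens its gate. Psme1 rose by 0.90 ± 0.15 (adjusted p = 0.000464) and Psme2 by 0.91 ± 0.19 (adjusted p = 0.00331). Psme1 levels were 9.15 to 9.66 in IL-2 cells and 8.41 to 8.76 in untreated cells, and Psme2 levels 9.63 to 10.35 in IL-2 cells and 8.76 to 9.45 in untreated cells.

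**Figure D1:**
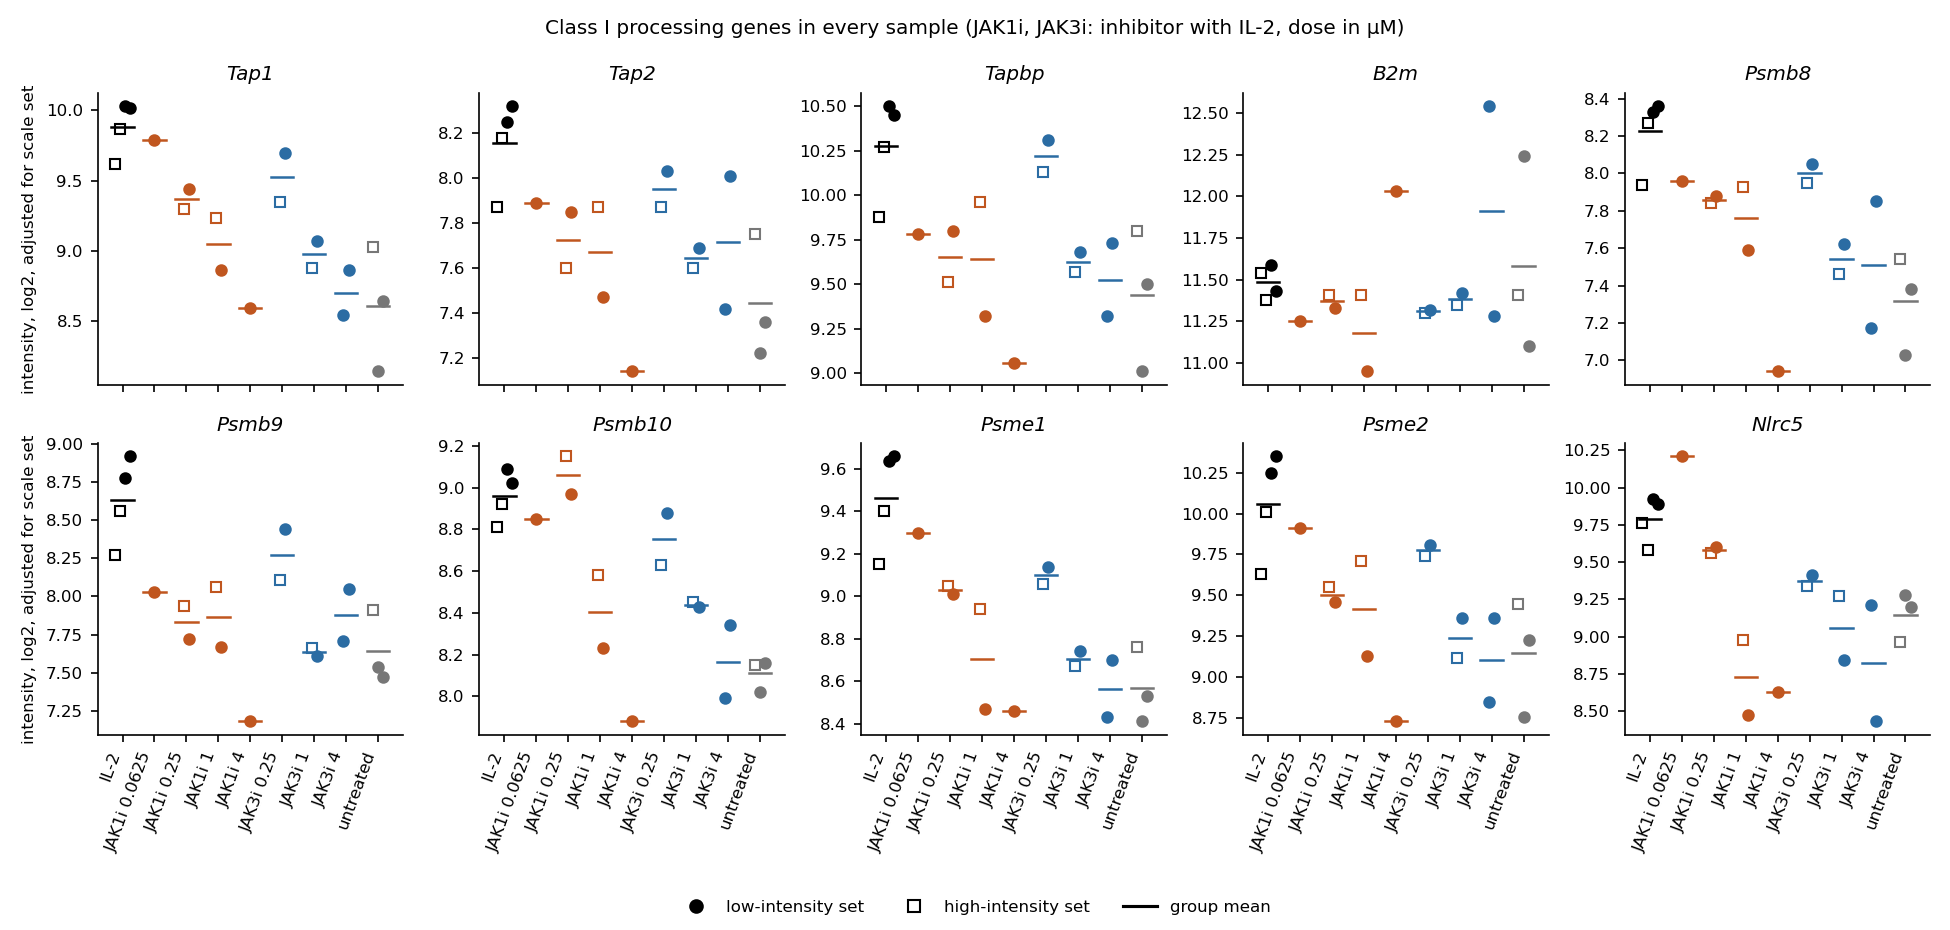
Log2 intensity of each gene in every sample, adjusted for the scale set (y axis, own range for each gene), by treatment group (x axis, doses in µM). Filled circles are the low-intensity set, open squares the high-intensity set and bars the group means; Tap1 lies between 9.62 and 10.03 with IL-2, above the 3 untreated samples, while B2m overlaps.

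Nlrc5, the switch of class I genes, had the smallest of the 9 rises when read by its brightest probe set. Its brightest probe set, the one used for the counts here, had levels of 9.76, 9.58, 9.92 and 9.89 in IL-2 cells, against 8.96, 9.28 and 9.2 in untreated cells. The change was 0.64 ± 0.17 (adjusted p = 0.0226). That probe set was the lowest of the 19 for this change. All 19 Nlrc5 probe sets were called higher in a fit over all probe sets with 1 symbol. The share of all probe sets called higher in that fit was not computed, and of all genes 6.56% were. The changes of the 19 ran from 0.64 to 2.28 with a median of 2.00. The next brightest probe set rose by 2.18 ± 0.22. The probe sets read different parts of the transcripts and share the same samples, so they are not replicates.

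**Figure D2:**
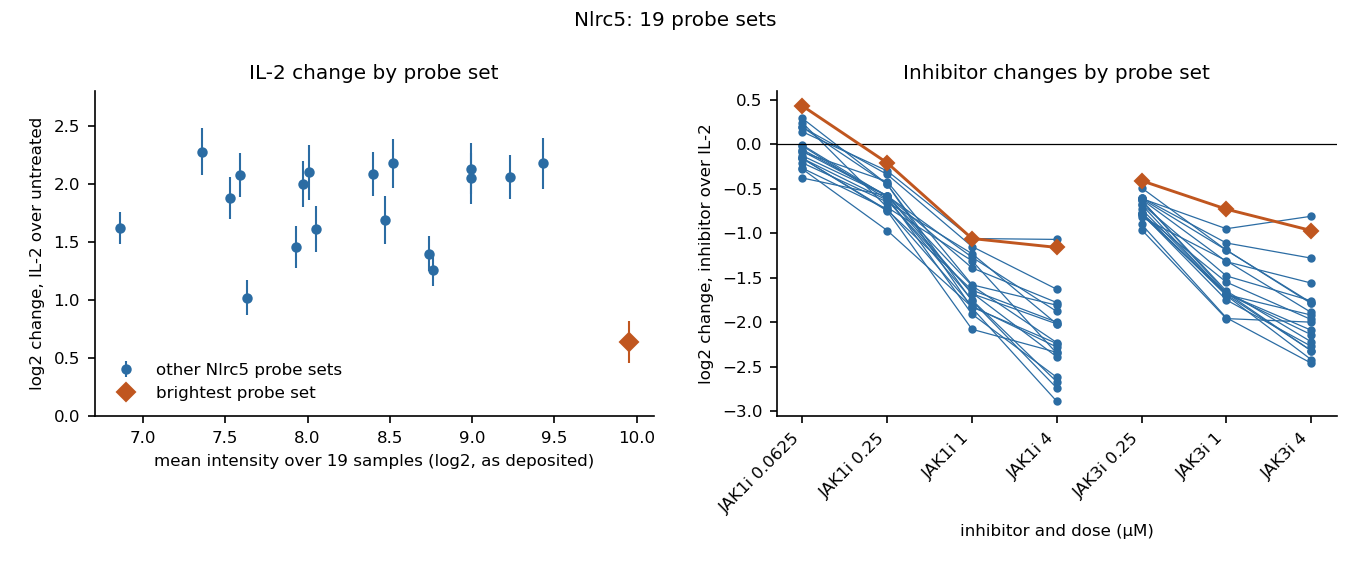
Left, log2 change of each of the 19 Nlrc5 probe sets with IL-2 over untreated (y axis, bars are standard errors) against its mean log2 intensity (x axis); right, log2 change of each probe set for each inhibitor and dose over IL-2 alone. The brightest probe set (diamond) has an IL-2 change of 0.64, and the other 18 lie between 1.02 and 2.28.

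The IL-2 change was larger in the low-intensity set than in the high-intensity set for 8 of the 10 genes, and the difference between these 2 changes was not itself tested. In the low-intensity set (2 samples against 2) 9 of the 10 changes were positive, and without B2m they ran from 0.66 for Nlrc5 to 1.63 for Tap1. In the high-intensity set (2 against 1) all 10 were positive, and without B2m they ran from 0.27 for Tap2 to 0.72 for Psmb10. A further limma term, added after the data had been seen, gave untreated cells a set difference of their own, beside 1 shared by IL-2 and inhibitor groups. It called 0 of 19752 genes, with 15.5% at an unadjusted p under 0.05. Of the 10 genes 2 passed that unadjusted level, Tap1 and Tapbp. The low-minus-high difference of the other groups exceeded that of untreated cells by 0.79 ± 0.26 for Tap1 (adjusted p = 0.301) and 0.66 ± 0.31 for Tapbp (adjusted p = 0.317). The only untreated sample of the high-intensity set is the one whose label has no time, and without it 8 of the 10 genes were called higher with IL-2.

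The constitutive counterparts of the immunosubunits had IL-2 changes of 0.41 to 0.47, against 0.85 to 0.99 for the immunosubunits, and the difference was not tested. Each immunosubunit takes the place of a constitutive subunit, Psmb8 of Psmb5, Psmb9 of Psmb6 and Psmb10 of Psmb7. With IL-2, Psmb7 rose by 0.46 ± 0.12 (adjusted p = 0.02), while Psmb5 changed by 0.47 ± 0.17 (adjusted p = 0.107) and Psmb6 by 0.41 ± 0.20 (adjusted p = 0.275). The log2 ratio of each pair within a sample was set to a mean of 0 in untreated cells. The ratio of Psmb8 to Psmb5 was then 0.27 to 0.56 in IL-2 cells, against -0.12 to 0.11 in untreated cells. The ratio of Psmb9 to Psmb6 was 0.39 to 0.73 in IL-2 cells, against -0.2 to 0.37 in untreated cells. The ratio of Psmb10 to Psmb7 was 0.26 to 0.49 in IL-2 cells, against -0.03 to 0.04 in untreated cells. No pair's ratios overlapped between the groups, though those of Psmb9 to Psmb6 nearly met (0.39 against 0.37). How often other gene pairs separate in this way was not computed, and the immunosubunits were already called higher with IL-2. These ratios are descriptions with no test, and they show unequal change within a sample only.

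Psme3, which encodes the nuclear activator that is not an immunoproteasome partner, rose by 0.86 ± 0.14 (adjusted p = 0.000394), about as much as Psme1 and Psme2. Of the 34 constitutive subunits of the core and its regulatory cap, 11 rose and 0 fell, with a median change of 0.42, where 6.56% of all genes rose. The smallest p-values were those of Psmd6 (0.74 ± 0.15, adjusted p = 0.00263), Psmb3 (0.65 ± 0.14, adjusted p = 0.00321) and Psmb2 (0.58 ± 0.13, adjusted p = 0.00605). Of 8 assembly factors and other regulators, 6 rose, beside that same share of all genes. After Psme3, the smallest p-values there were those of Psmg2, an assembly chaperone (0.82 ± 0.16, adjusted p = 0.00161), and Pomp, which helps complete new proteasomes (0.70 ± 0.16, adjusted p = 0.0068).

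**Figure D3:**
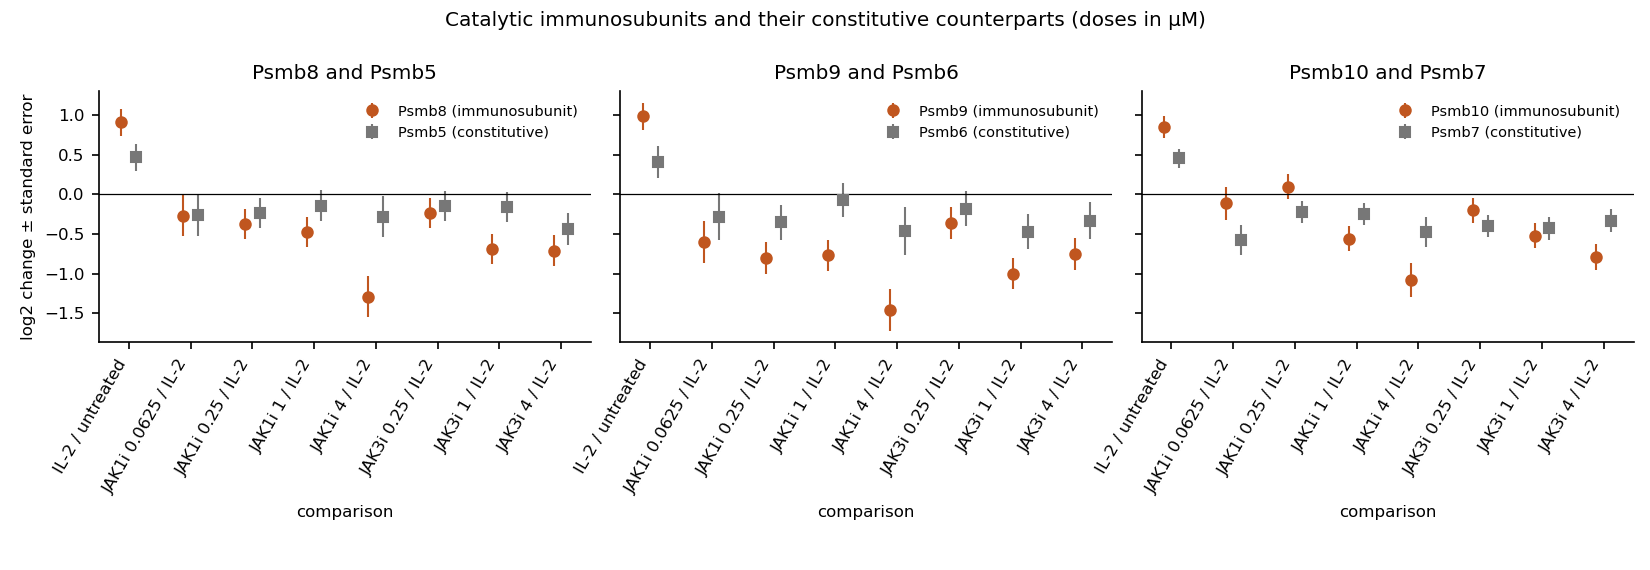
Log2 change with its standard error (y axis) for each comparison (x axis, doses in µM), for the 3 catalytic immunosubunits (circles) and the constitutive subunits they replace (squares). With IL-2 over untreated Psmb8 stands at 0.91 and Psmb5 at 0.47, Psmb9 at 0.99 and Psmb6 at 0.41, and Psmb10 at 0.85 and Psmb7 at 0.46.

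Other steps of peptide supply gave called rises too. Of 13 measured peptide loading and trimming partners, 8 rose and 0 fell, where 6.56% of all genes rose. The smallest p-values were those of Lap3, a cytosolic aminopeptidase (1.5 ± 0.16, adjusted p = 1.7e-06), Tapbpl, a tapasin-related peptide editor (1.01 ± 0.18, adjusted p = 0.000518), and the chaperone calreticulin gene Calr (0.76 ± 0.14, adjusted p = 0.00103). Only 9 of 18 listed class I heavy chain genes were measured, since H2-K1, H2-D1 and others had no probe set with a single symbol. Of those 9 the only called rise was H2-T24 (2.04 ± 0.24, adjusted p = 5.61e-06), a non-classical gene, and the median was 0.15. Of 9 measured regulators of class I transcription 3 rose, namely Irf1 (1.69 ± 0.20, adjusted p = 5.93e-06), Stat2 (1.74 ± 0.24, adjusted p = 4.03e-05) and Irf9 (0.81 ± 0.21, adjusted p = 0.0145).

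Markers of other cell types moved with the treatment. In untreated cells NK markers, including Ncr1 and Nkg7, lay at the 75.4th to 98.6th percentile of genes (median 89.35). With IL-2, 9 of the 10 rose (6.56% of all genes did). Among the 8 markers of macrophages and monocytes, 6 fell with IL-2 (2.59% of all genes did) and none was called higher. Their summed log2 level was 10.81 to 11.26 in IL-2 cells and 12.51 to 12.69 in untreated cells. Of 10 neutrophil markers 7 fell (summed level 11.5 to 11.56 in IL-2 cells and 12.19 to 12.36 in untreated cells). Of 9 B cell markers 4 fell (12.53 to 12.67 in IL-2 cells and 12.83 to 12.98 in untreated cells). Of 10 dendritic cell markers 2 fell (Cd209a and Flt3) and 1 rose (Clec9a), with a summed level of 9.71 to 9.82 in IL-2 cells and 10.13 to 10.36 in untreated cells. No T cell marker of 10 was called in either direction. In untreated cells macrophage and monocyte markers lay at percentiles 55.6 to 99.9 of genes (median 95.4). Neutrophil markers lay there at 30.2 to 99.7 (median 91.25) and B cell markers at 58.5 to 99.8 (median 95.2). Dendritic cell markers lay at 11.3 to 93.7 (median 63.35) and T cell markers at 10 to 93.8 (median 70). Markers of macrophages, neutrophils and B cells were thus as high among genes as NK markers. The part of these other cells in the changes of the 10 genes was not tested. Fewer cells of a type and less RNA per cell cannot be told apart in such bulk samples.

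Under the JAK1 inhibitor, 0, 1, 5 and 9 of the 10 genes were called lower than with IL-2 alone at 0.0625, 0.25, 1 and 4 µM, and the lowest and the top dose are 1 sample each. At 0.0625 µM limma called 0 of the 10 lower, with 1 (Psmb9) at an unadjusted p under 0.05 as had 12.3% of all genes, and 0.0152% of all genes were called lower. At 0.25 µM it called 1 lower, with 6 at an unadjusted p under 0.05 as had 12.2% of all genes, and 1.52% of all genes were called lower. At 1 µM it called 5 lower, where 2.31% of all genes were, and at 4 µM 9, where 2.63% were.

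Psmb9 was the only one of the 10 genes called at 0.25 µM of the JAK1 inhibitor. Its levels were 8.03 at 0.0625 µM, 7.94 and 7.72 at 0.25 µM, 8.06 and 7.67 at 1 µM and 7.18 at 4 µM of the JAK1 inhibitor, against 8.27 to 8.92 in IL-2 cells. Every inhibitor sample lay below every IL-2 sample. Its change at 0.25 µM was -0.80 ± 0.20 (adjusted p = 0.0342), and that call was lost when any 1 of 5 of the 6 samples compared was left out, all but IL-2 replicate 1 (adjusted p = 0.0695 to 0.548). At 4 µM its change was -1.46 ± 0.26 (adjusted p = 0.00159).

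Psmb10 was first called at 1 µM of the JAK1 inhibitor. Its levels were 8.85 at 0.0625 µM, 9.15 and 8.97 at 0.25 µM, 8.58 and 8.23 at 1 µM and 7.88 at 4 µM, against 8.81 to 9.09 in IL-2 cells. At 0.25 µM the groups overlapped and the change was 0.10 ± 0.16 (95% interval -0.23 to 0.42). It fell by 0.56 ± 0.16 at 1 µM (adjusted p = 0.0411) and by 1.08 ± 0.21 at 4 µM (adjusted p = 0.00316). The step between 0.25 and 1 µM was -0.66 ± 0.18 (adjusted p = 0.167), so it was not called across all genes.

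The other falls called at 1 µM of the JAK1 inhibitor were those of Tap1, Psme1 and Nlrc5. Tap1 had levels of 9.23 and 8.86 at 1 µM, against 9.62 to 10.03 in IL-2 cells, a change of -0.84 ± 0.20 (adjusted p = 0.0166). Psme1 fell by 0.76 ± 0.17 (adjusted p = 0.0105) and Nlrc5 by 1.06 ± 0.20 (adjusted p = 0.00183). Tap2, Tapbp, Psmb8 and Psme2 had changes of -0.47 to -0.64 that were not called.

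**Figure D4:**
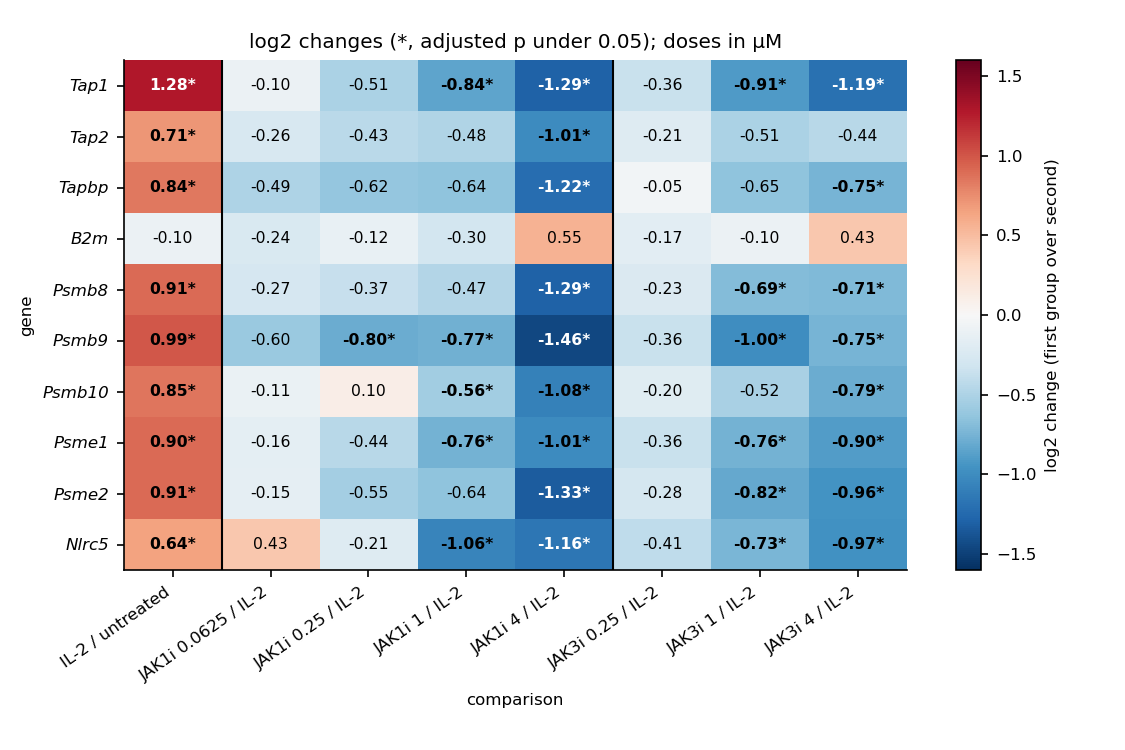
Log2 change of each gene (rows) in each comparison (columns, first group over second, doses in µM), with colour and number giving the change and an asterisk marking an adjusted p under 0.05. The IL-2 column is positive for all genes but B2m, and 9 genes are marked at 4 µM of the JAK1 inhibitor and 8 at 4 µM of the JAK3 inhibitor.

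The 1 µM counts rested on few arrays. Without JAK1 inhibitor 1 µM replicate 2 the count at that dose was 0, and without replicate 1 of that group or 1 of the IL-2 samples it ranged up to 7. Within the low-intensity set the changes at 1 µM ran from -1.43 to -0.56 over the 10 genes, and within the high-intensity set from -0.69 to -0.05. All 10 were negative in both. At 0.25 µM they were negative for 10 genes in the low-intensity set and for 9 in the high-intensity set. The single 4 µM sample had changes of -1.67 to -1.14 for the 9 genes other than B2m against the 2 IL-2 samples of its set.

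The JAK3 inhibitor left these genes uncalled at its lowest dose and lowered most of them at 1 and 4 µM. At 0.25 µM limma called 0 of the 10, with 2 at an unadjusted p under 0.05 (Psme1 and Nlrc5) as had 13% of all genes, while 2.26% of all genes were called lower. At 1 µM it called 6 lower (Tap1, Psmb8, Psmb9, Psme1, Psme2 and Nlrc5), where 3.69% of all genes were lower. At 4 µM it called 8 lower, all but Tap2 and B2m, where 4.5% of all genes were.

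Tap1 had levels of 9.35 and 9.7 at 0.25 µM, 8.88 and 9.07 at 1 µM and 8.54 and 8.86 at 4 µM of the JAK3 inhibitor, against 9.62 to 10.03 in IL-2 cells. The lowest dose overlapped IL-2 alone and the higher doses did not. The changes were -0.36 ± 0.20, -0.91 ± 0.20 (adjusted p = 0.00773) and -1.19 ± 0.21 (adjusted p = 0.000992). Psmb9 reached its lowest mean at 1 µM, with levels of 8.11 and 8.44, then 7.66 and 7.61, then 8.05 and 7.71, against 8.27 to 8.92 in IL-2 cells. Its fall was called at 1 µM (-1 ± 0.20, adjusted p = 0.0024) and at 4 µM (-0.75 ± 0.20, adjusted p = 0.0259).

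Tapbp was called at the highest dose of the JAK3 inhibitor. It had 10.13 and 10.31 at 0.25 µM of the JAK3 inhibitor, inside the IL-2 range of 9.88 to 10.5, and then 9.57 and 9.68 at 1 µM and 9.32 and 9.73 at 4 µM. The change was -0.05 ± 0.22 at 0.25 µM (95% interval -0.51 to 0.4). It was -0.65 ± 0.22 at 1 µM (adjusted p = 0.0939) and it fell by 0.75 ± 0.23 at 4 µM (adjusted p = 0.0497).

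Both activator genes fell at the higher doses of the JAK3 inhibitor. Psme1 fell by 0.76 ± 0.17 at 1 µM (adjusted p = 0.00814) and by 0.90 ± 0.18 at 4 µM (adjusted p = 0.0027). Psme2 fell by 0.82 ± 0.22 at 1 µM (adjusted p = 0.0246) and by 0.96 ± 0.23 at 4 µM (adjusted p = 0.0102).

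These counts too leaned on single arrays. Without JAK3 inhibitor 1 µM replicate 2 the count at 1 µM was 0, and without JAK3 inhibitor 4 µM replicate 1 the count at 4 µM was 3. Within the sets the 1 µM changes were negative for all 10 genes, from -1.24 to -0.09 in the low-intensity set and from -0.86 to -0.11 in the high-intensity set. At 4 µM, where both samples are in the low-intensity set, 9 of 10 were negative.

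The other Nlrc5 probe sets fell as well, most of them by more than the brightest one. At 1 µM of the JAK1 inhibitor all 19 were called lower, with a median of -1.64, and at 4 µM all 19, with a median of -2.23. For the JAK3 inhibitor 8 of 19 were called lower at 0.25 µM (median -0.68), all 19 at 1 µM (median -1.65) and all 19 at 4 µM (median -1.97). At 0.25 µM of the JAK1 inhibitor 1 of 19 was called (median -0.58). By the brightest probe set alone, Nlrc5 was not called at 0.25 µM of either inhibitor. The share of all probe sets called lower was not computed. Of all genes, 1.52%, 2.31% and 2.63% were called lower at 0.25, 1 and 4 µM of the JAK1 inhibitor. At those doses of the JAK3 inhibitor 2.26%, 3.69% and 4.5% were.

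B2m was not called in any comparison when all samples were fitted. Its mean level was 11.25 at 0.0625 µM, 11.37 at 0.25 µM, 11.18 at 1 µM and 12.03 at 4 µM of the JAK1 inhibitor. It was 11.31, 11.38 and 11.91 at 0.25, 1 and 4 µM of the JAK3 inhibitor, 11.48 with IL-2 and 11.58 in untreated cells. Its change at 4 µM was 0.55 ± 0.35 for the JAK1 inhibitor (adjusted p = 0.499) and 0.43 ± 0.28 for the JAK3 inhibitor (adjusted p = 0.433). It was called higher at 4 µM of the JAK1 inhibitor with only the groups compared (0.53 ± 0.12, adjusted p = 0.0289), and at 4 µM of the JAK3 inhibitor without replicate 2 of that group (1.06 ± 0.27, adjusted p = 0.0191). Its JAK1 slope was called with a replicate block (0.42 ± 0.11, adjusted p = 0.036). The 3 highest samples stood at 12.03 to 12.54, namely JAK1 inhibitor 4 µM replicate 2, JAK3 inhibitor 4 µM replicate 1 and untreated replicate 3. The other 16 lay between 10.95 and 11.59. B2m is close to the top of the intensity range, and whether its probe set is saturated cannot be read from these values.

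The 2 inhibitors were compared at the 3 doses they share, which makes 30 tests over the 10 genes. No gene of the 10 was called at any dose, while 0.451% of all genes were called at 0.25 µM and 0% at 1 and at 4 µM. At an unadjusted p under 0.05 there was 1 of the 10 at 0.25 µM, 0 at 1 µM and 2 at 4 µM, against 6.59%, 0.845% and 2.69% of all genes. The nearest to a difference at 0.25 µM was Tapbp, with 9.51 and 9.8 in JAK1 inhibitor samples, against 10.13 and 10.31 in JAK3 inhibitor samples. Its difference was -0.57 ± 0.25 (95% interval -1.09 to -0.04, adjusted p = 0.686).

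At 1 µM the estimates were small for most genes but the intervals were wide. Tap1 differed by 0.06 ± 0.24 (95% interval -0.43 to 0.56) and Psme1 by 0.00 ± 0.20 (-0.41 to 0.42). These intervals are bounds on a difference, and they do not show that the compounds act alike. At 4 µM, with 1 JAK1 inhibitor sample against 2 JAK3 inhibitor samples, 9 of the 10 estimates were negative. Psmb9 had 7.18 with the JAK1 inhibitor, against 7.71 and 8.05 with the JAK3 inhibitor, a difference of -0.70 ± 0.28 (95% interval -1.28 to -0.13, adjusted p = 1). The lone JAK1 inhibitor sample is assumed to vary like the other groups.

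At 0.25 µM, 4 of the 10 NK markers were called between the inhibitors, and 0 of the 10 class I genes, where 0.451% of all genes were. For the 10 NK markers the median change over IL-2 was -0.31 with the JAK1 inhibitor (0 called) and -1.52 with the JAK3 inhibitor (9 called lower, where 2.26% of all genes were). The 4 called between the inhibitors were higher with the JAK1 inhibitor. For the 8 macrophage and monocyte markers the median change was 0.61 with the JAK1 inhibitor (3 called higher, where 0.729% of all genes were) and 1.65 with the JAK3 inhibitor (6 called higher, where 2.74% were). Their summed level at 0.25 µM was 11.82 to 11.95 with the JAK1 inhibitor and 12.44 to 12.67 with the JAK3 inhibitor. In untreated cells it was 12.51 to 12.69. The median change of the 10 class I genes at this dose was -0.43 with the JAK1 inhibitor and -0.26 with the JAK3 inhibitor. At 0.25 µM of the JAK3 inhibitor, macrophage marker levels overlapped those of untreated cells. Of 10 neutrophil markers 5, and of 9 B cell markers 3, were called higher there than with IL-2 alone, and 0 lower. With the JAK1 inhibitor at that dose 1 and 0 were called higher. Of the class I genes, 8 held 59.5% (Psme1) to 93.5% (Tapbp) of their IL-2 change at 0.25 µM of the JAK3 inhibitor. Nlrc5 held 35.4% by its brightest probe set or 61.3% by the median of its 19. At 1 µM the summed macrophage level was 12.43 to 12.66 with the JAK1 inhibitor and 12.65 to 12.66 with the JAK3 inhibitor, and at 4 µM 12.6 with the JAK1 inhibitor and 12.44 to 12.81 with the JAK3 inhibitor. Of the 10 neutrophil markers 6 were called higher than with IL-2 alone at 1 µM of the JAK1 inhibitor, where 2.85% of all genes were, and 6 at 1 µM of the JAK3 inhibitor, where 2.86% were. Their summed level at 1 µM was 12.06 to 12.16 with the JAK1 inhibitor and 12.12 to 12.41 with the JAK3 inhibitor. The dendritic cell markers had 2 called higher at 1 µM of each inhibitor. The part of these markers' cells in the falls of the 10 genes was not tested.

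That share was computed for the 9 genes that IL-2 raised, from group means with untreated cells at 0% and IL-2 cells at 100%, and is a description. With the JAK1 inhibitor the median over the 9 genes was 82% at 0.0625 µM, 51.4% at 0.25 µM, 30% at 1 µM and -42.8% at 4 µM. A negative value means a level below the untreated mean, and all 9 genes were there at 4 µM, which is 1 sample. Of them 6 lay below every untreated sample, as did 33.8% of all genes, while Tap1, Tapbp and Psme1 lay within the untreated range. Tap1 stood at 8.59 there, against 9.03, 8.64 and 8.14 in untreated cells. The value of 9.03 is from the untreated sample with no stated time, the only untreated one of the high-intensity set. Shares without that sample were not computed. With the JAK3 inhibitor the median was 70.8% at 0.25 µM, 22.6% at 1 µM and 7.3% at 4 µM, where 3 of the 9 were below the untreated mean. For Nlrc5 the share depended on the probe set, a comparison chosen once the values were known. At 1 µM of the JAK1 inhibitor it was -65.5% by the brightest probe set and 14.3% by the median of all 19, and at 4 µM -80.5% and -19.2%. With the JAK3 inhibitor it was 35.4% and 61.3% at 0.25 µM, -14.7% and 17.7% at 1 µM and -51% and -6.5% at 4 µM. At 0.0625 µM of the JAK1 inhibitor the brightest probe set gave 166.5% and the median 94.9%.

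**Figure D5:**
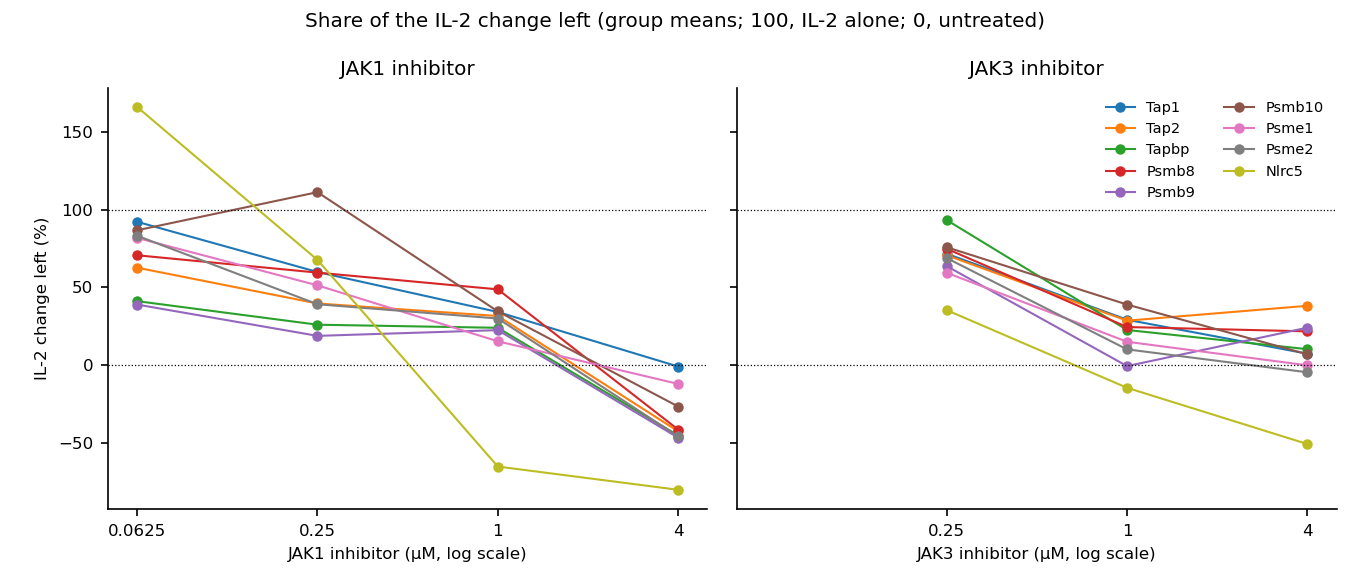
Share of the IL-2 change left (y axis, percent of the difference between the IL-2 and untreated group means) for 9 genes against inhibitor dose (x axis, µM on a log scale), JAK1 inhibitor left and JAK3 inhibitor right. At 4 µM the JAK1 lines other than Nlrc5 lie between -46.9% and -1% and the JAK3 lines between -4.7% and 38.2%. The lowest line at 4 µM in each panel is Nlrc5 by its brightest probe set, at -80.5% and -51%, where the median of its 19 probe sets gives -19.2% and -6.5%.

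Neither inhibitor at 4 µM left the genes different from untreated cells by the test. Limma called 0 of the 10 for the JAK1 inhibitor and 0 for the JAK3 inhibitor, with 0 at an unadjusted p under 0.05 in both, and 0% of all genes were called. The median log2 difference from untreated cells was -0.34 with the JAK1 inhibitor (9 of 10 negative, 1 sample) and 0.09 with the JAK3 inhibitor (7 of 10 positive, 2 samples). For Psmb9 the difference was -0.47 ± 0.26 (95% interval -1.02 to 0.09) with the JAK1 inhibitor and 0.24 ± 0.21 (-0.2 to 0.68) with the JAK3 inhibitor.

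The dose trend was called for 3 genes under the JAK1 inhibitor and for none under the JAK3 inhibitor, with Nlrc5 read by its brightest probe set. Over its 19 probe sets the slope was called negative for 19 with the JAK1 inhibitor (median -0.67) and for 10 with the JAK3 inhibitor (median -0.62). Per 4-fold step of the JAK1 inhibitor, Nlrc5 changed by -0.56 ± 0.10 (adjusted p = 0.00399), Tap1 by -0.39 ± 0.10 (adjusted p = 0.0459) and Psmb10 by -0.36 ± 0.08 (adjusted p = 0.0191). Of all genes, 1.96% had a called negative slope for the JAK1 inhibitor and 0.137% for the JAK3 inhibitor. The Tap1 slope for the JAK3 inhibitor was -0.41 ± 0.12 (adjusted p = 0.285). At an unadjusted p under 0.05 there were 8 of the 10 genes for the JAK1 slope, as had 20.6% of all genes, and 7 for the JAK3 slope, as had 8.97%. The slopes of the 2 inhibitors were not tested against each other. Both end doses of the JAK1 trend, 0.0625 and 4 µM, are 1 sample each. Between neighbouring doses none of the 10 was called. Of all genes, 0.00506% were called between 0.25 and 0.0625 µM of the JAK1 inhibitor, 0.294% between 1 and 0.25 µM and 0% between 4 and 1 µM, and for the JAK3 inhibitor 0% were called at both steps.

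The order of the group means was alike for most genes. For Tap1 it ran from IL-2 (9.88) through JAK1 inhibitor 0.0625 µM (9.79), JAK3 inhibitor 0.25 µM (9.52), JAK1 inhibitor 0.25 µM (9.37), JAK1 inhibitor 1 µM (9.04), JAK3 inhibitor 1 µM (8.98) and JAK3 inhibitor 4 µM (8.7) to untreated (8.6) and JAK1 inhibitor 4 µM (8.59). Neighbours in that order were not called as different wherever they were tested. Over the 9 group means, Pearson's r of each gene with the mean of the others was 0.791 for Nlrc5 to 0.969 for Psme2, and -0.653 for B2m. Among the 36 pairs without B2m it ran from 0.621 to 0.988, highest for Tap1 with Psme1. The groups share the IL-2 and untreated extremes and the same arrays, so these values describe the pattern only.

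The 5 genes outside the list with the most similar pattern over the 9 group means were Ube2l6 (r = 0.987), Slfn9 (0.985), Samhd1 (0.981), Parp14 (0.98) and Tmem140 (0.98). Their IL-2 changes ran from 0.87 for Samhd1 to 1.7 for Parp14. A positive change was all but set by the choice of these genes, since IL-2 and untreated cells enter the pattern.

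The partners of the pathway also held genes that fell. At 4 µM of the JAK1 inhibitor, where 2.63% of all genes were called lower, 3 of 13 loading and trimming partners fell, namely Lap3 (-1.52 ± 0.24, adjusted p = 0.000443), Tapbpl (-1.20 ± 0.26, adjusted p = 0.0098) and the trimming peptidase gene Erap1 (-1.18 ± 0.27, adjusted p = 0.0149). At 4 µM of the JAK3 inhibitor, where 4.5% of all genes were, 3 fell, and they were Lap3 (-1.41 ± 0.19, adjusted p = 3.74e-05), Tapbpl (-0.97 ± 0.21, adjusted p = 0.00404) and Erap1 (-0.83 ± 0.21, adjusted p = 0.0192). Lap3 was already lower at 0.25 µM of either inhibitor, by 1.13 ± 0.18 with the JAK1 inhibitor (adjusted p = 0.00136) and by 1.34 ± 0.18 with the JAK3 inhibitor (adjusted p = 6.18e-05). Of the 34 constitutive subunits 3 fell at 4 µM of the JAK1 inhibitor and 7 at 4 µM of the JAK3 inhibitor, beside those same shares of all genes.

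Of the 9 measured regulators of class I transcription, 3 were called lower at 4 µM of each inhibitor. Of all genes, 2.63% were with the JAK1 inhibitor and 4.5% with the JAK3 inhibitor. They were the 3 that rose with IL-2, Irf1, Stat2 and Irf9, and the other 6 were not called. The same IL-2 samples enter both comparisons, so a fall is likelier for genes picked by their rise. Irf1 was lower by 0.89 ± 0.22 at 0.25 µM (adjusted p = 0.0393), by 1.34 ± 0.22 at 1 µM (adjusted p = 0.000626) and by 2.03 ± 0.30 at 4 µM of the JAK1 inhibitor (adjusted p = 0.000225). With the JAK3 inhibitor it was lower by 0.91 ± 0.22 (adjusted p = 0.0184), by 1.63 ± 0.22 (adjusted p = 5.78e-05) and by 1.58 ± 0.23 (adjusted p = 0.000125) at those doses. H2-T24 fell by 2.68 ± 0.36 at 4 µM of the JAK1 inhibitor (adjusted p = 7.6e-05) and by 2.35 ± 0.28 at 4 µM of the JAK3 inhibitor (adjusted p = 1.07e-05), and was the only called heavy chain gene of 9 there.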

How the data were processed

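Splenic NK cell RNA from 19 samples was hybridized to 1 Affymetrix Mouse Gene 1.0 ST array each. The deposited table holds linear intensity values for 24922 probe sets, made by the authors with Affymetrix Power Tools and RMA, per the submitters' processing notes, with no versions. Log2 of these intensities was analysed. A single symbol was given for 21425 probe sets, which were used, and several for 1399, while 2098 were not in the annotation table. The brightest stood for each of 921 genes with several, leaving 19752 genes. Samples were grouped by their labels.

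All 19 samples were fitted in limma 3.58.1 (R 4.3.3; lmFit with group means and a scale-set term, eBayes with trend; 9 residual and 10.5 prior degrees of freedom), tested beforehand on simulated data. The set term splits arrays at a log2 median of 6.5 and puts 1 array on the other side of what its title form gives. Deviations from the fit had a median r of -0.001 (-0.54 to 0.698) over 51 pairs of samples of different groups with the same replicate number. Over 106 such pairs with other numbers it was 0 (-0.812 to 0.544). In groups of 2 samples the deviations are equal and opposite, so these values cannot show whether replicate numbers pair samples. Genes named beyond the 10 are the constitutive counterparts, up to 3 genes of smallest p per pathway list, the 5 nearest patterns and Jak1. The genes and lists were chosen with earlier results of these data known. Python 3.11.15, numpy 2.4.6, pandas 2.3.3 and matplotlib 3.10.9 were used as well. Other normalizations, variance models, sample sets, a replicate block and left-out samples were tried as alternatives.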

Additional observations from a re-analysis of the deposited data

How the results depend on the processing

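Among 2450 recomputed values of single genes, 2189 kept their side of the threshold, 208 lost a call, 53 gained one and 0 called values changed sign. The 2189 include values of genes not called in the fit described above, which had no call to lose. The 208 lost calls are therefore a larger share of the called values than of all 2450. Over these values, those between neighbouring doses and those of the 18 other Nlrc5 probe sets, 177 of 3430 changed sign with no call on either side. The counts of the 10 genes called depended on the handling of the scales, and the cause was not tested. The array that the title form moves, JAK3 inhibitor 4 µM replicate 1, had a log2 median of 5.7, inside the low-intensity range of 5.7 to 5.9. With the form of the sample title in place of the scale set, counts were 1 for IL-2 against untreated, 0 for the JAK1 inhibitor at 0.25, 1 and 4 µM, 0 for the JAK3 inhibitor at 1 µM, 0 for the JAK1 slope, 1 for the JAK3 slope and 1 for JAK3 inhibitor 4 µM against untreated. With arrays centred on their medians and no set term, they were 0, 1 and 2 for the JAK1 inhibitor at 0.25, 1 and 4 µM, 1 and 4 for the JAK3 inhibitor at 1 and 4 µM, and 0 for the JAK1 slope. With medians and the set term, they were 5 for JAK3 inhibitor 4 µM and 1 for the JAK1 slope, and with quantile normalization 9 for JAK1 inhibitor 1 µM and 7 for the JAK1 slope. Within the high-intensity set (1 residual degree of freedom) the count was 0 for IL-2, JAK1 inhibitor 0.25 and 1 µM and JAK3 inhibitor 1 µM. Within the low-intensity set it was 0 and 0 for JAK1 inhibitor 0.25 and 1 µM, 4 for JAK1 inhibitor 4 µM, 0 and 4 for JAK3 inhibitor 1 and 4 µM, and 0 for the JAK1 slope; fewer samples enter these fits. With only the groups compared, counts were 6, 9 and 10 (B2m, higher, among them) for JAK1 inhibitor 0.25, 1 and 4 µM, 3 for JAK3 inhibitor 0.25 µM, 1 for JAK1 against JAK3 inhibitor at 0.25 µM and 9 for the JAK1 slope. With the mean of all probe sets of a gene, they were 1 for JAK3 inhibitor 0.25 µM and 1 for the JAK3 slope.

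The replicate block, for numbers that are not known to pair the samples, gave 0, 1 and 4 for the JAK1 inhibitor at 0.25, 1 and 4 µM, 1 and 1 for the JAK3 inhibitor at 1 and 4 µM, and 10 (B2m, positive, among them) for the JAK1 slope.

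Samples were left out in turn only where another of their group remained. Counts then ranged from 7 to 9 for IL-2. For the JAK1 inhibitor they were 0 to 1 at 0.25 µM and 0 to 7 at 1 µM. For the JAK3 inhibitor they were 0 to 8 at 1 µM and 3 to 8 at 4 µM. The range was 6 to 9 for the JAK1 inhibitor at 4 µM, where only IL-2 samples were left out. It was 2 to 2 for the JAK1 slope, where only samples of 0.25 and 1 µM were left out. How far these 2 results rest on their single arrays was therefore not tested. For the other comparisons the counts stayed at 0 to 0. Signal over background cannot be read from these values.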

Other observations

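The mRNA of the targeted kinase Jak1 was measured and that of Jak3 was not, since no probe set with a single symbol reads it. Jak1 changed by -0.26 ± 0.12 with IL-2 over untreated cells (adjusted p = 0.238). It was higher than in IL-2 cells at 4 µM of the JAK3 inhibitor (0.61 ± 0.14, adjusted p = 0.00899), and its change at 4 µM of the JAK1 inhibitor was 0.49 ± 0.18 (adjusted p = 0.17). Between the inhibitors at 4 µM, limma called 0 of 19752 genes.

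Among the 4 IL-2 samples, none of the 10 genes had a sample far enough from the other 3 to pass Dixon's 95% value for an outlying sample.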
